A study of Homo sapiens with 22 samples.

Results

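AP-1 is a transcription factor assembled from pairs of basic leucine zipper proteins, and 10 genes that encode its subunits or close partners were examined here: JUN, JUNB, JUND, FOS, FOSB, FOSL1, FOSL2, ATF3, BATF and MAFF. The members of this set were the regions of 4 deposited region tables that overlapped the GRCh38 RefSeq span of one of these genes extended by 50 kb on each side. They came to 575 regions of 409446 in all: 160 of 95436 for acetylated histone H3 lysine 27 (H3K27ac), 180 of 138731 for Jun, 95 of 66168 for CTCF and 140 of 109111 for Rad21. The genes were chosen by name, with earlier results of these data known.

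The regions were measured in K562, an established human leukaemia line with erythroid and megakaryocytic features, labelled wild type. Cells were taken before PMA (0 h) or after 6 or 72 h in 25 nM PMA, a phorbol ester that activates protein kinase C and drives the line towards the megakaryocyte lineage. Chromatin was profiled by CUT&RUN after formaldehyde crosslinking. There were 22 libraries in 11 groups of 2: 3 times for H3K27ac, Jun and CTCF, and for Rad21 only 0 and 72 h. The labels do not say whether the 2 libraries of a group came from separate cultures, so the p-values below measure only the spread between these libraries. Each library is bulk chromatin, in which fewer marked cells and less signal per cell cannot be told apart.

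Jun proteins bind DNA as homodimers or as heterodimers with Fos proteins, at the TPA response element or at the related, slightly longer cyclic AMP response element. Several subunits are immediate early genes, switched on by kinase signalling within minutes to hours, and the promoter of JUN carries AP-1-type sites through which Jun acts on its own gene. H3K27ac marks active promoters and enhancers, CTCF is an insulator protein, and Rad21 is a subunit of the cohesin ring that forms chromatin loops.

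The promoters are shown first, because Jun was measured over them. RefSeq promoter windows (GRCh38.p14) were found for 9 of the 10 genes, 11 windows in all, and the 250 bases upstream of each start were searched on both strands for TGACTCA, TGACGTCA, TGACATCA and TTACCTCA. The last pair is the form of the sites known from the JUN promoter. At least 1 of the 4 motifs was present in 4 of the 11 member windows, against 8.61% of the 35116 windows in the table (4.2%, 1.65%, 2.37% and 0.644% for the 4 motifs in the order given). The match in the JUN window, which is among the 4, was fixed in advance by the choice of the last pair. It therefore does not count beside this background. None of these motifs overlaps another in the windows printed here. The 4 windows with a match, and that of FOSB, where Jun was high at 0 h without an exact match, read as follows, 5′ to 3′ along the gene, with matches in capitals.

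JUN, chr1:58784048-58784297, minus strand: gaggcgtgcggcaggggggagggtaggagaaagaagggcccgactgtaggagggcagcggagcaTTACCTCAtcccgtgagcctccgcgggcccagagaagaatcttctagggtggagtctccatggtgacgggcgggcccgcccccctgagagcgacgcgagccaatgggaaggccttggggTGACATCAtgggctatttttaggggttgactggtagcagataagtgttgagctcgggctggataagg

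JUND, chr19:18281623-18281872, minus strand: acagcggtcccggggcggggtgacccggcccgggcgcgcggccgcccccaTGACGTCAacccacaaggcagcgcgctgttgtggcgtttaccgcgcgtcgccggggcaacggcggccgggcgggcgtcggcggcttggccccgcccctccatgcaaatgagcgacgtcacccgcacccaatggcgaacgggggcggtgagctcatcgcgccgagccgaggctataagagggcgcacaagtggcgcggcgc

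MAFF, chr22:38201744-38201993, plus strand: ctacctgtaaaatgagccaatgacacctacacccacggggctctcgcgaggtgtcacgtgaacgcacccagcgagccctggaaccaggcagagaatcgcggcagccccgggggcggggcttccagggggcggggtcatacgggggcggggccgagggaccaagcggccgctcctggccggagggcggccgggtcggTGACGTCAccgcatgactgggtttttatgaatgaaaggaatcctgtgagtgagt

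ATF3, chr1:212565157-212565406, plus strand: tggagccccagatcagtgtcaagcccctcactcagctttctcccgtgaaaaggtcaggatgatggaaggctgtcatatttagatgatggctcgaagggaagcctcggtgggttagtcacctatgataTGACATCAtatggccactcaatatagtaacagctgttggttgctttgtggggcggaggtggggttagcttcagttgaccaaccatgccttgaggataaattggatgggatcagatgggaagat

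FOSB, chr19:45467746-45467995, plus strand: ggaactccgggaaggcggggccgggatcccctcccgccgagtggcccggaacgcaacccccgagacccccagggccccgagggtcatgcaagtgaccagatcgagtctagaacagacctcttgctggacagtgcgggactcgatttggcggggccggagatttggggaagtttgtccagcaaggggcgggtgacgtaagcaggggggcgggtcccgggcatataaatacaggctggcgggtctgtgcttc

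In the JUN window the TTACCTCA match began 186 bases and the TGACATCA match 67 bases upstream of the start. The TGACGTCA matches of JUND and MAFF began 200 and 54 bases upstream, and the TGACATCA match of the upstream ATF3 start 123 bases upstream. A match describes the letters only. The Jun region at each of these 5 starts covers the window whole.

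Library totals over the regions ran from 2553677 to 6068421 counts for CTCF, 4398797 to 7285286 for Rad21, 4766421 to 18883962 for Jun and 12634261 to 27266241 for H3K27ac. Regions of the mitochondrial chromosome held 8.58 to 27.7% of the Jun counts, 9.55 to 30.5% of the CTCF counts and 24.8 to 34.1% of the Rad21 counts, but at most 1.47% of the H3K27ac counts. H3K27ac at K562 marker genes (read at each gene's strongest region) was lower at 72 h at 6 of 8 tested genes, KLF1 among them (log2 fold change −4.98), while among megakaryocyte genes it was higher at ITGB3 (0.97) and lower at ITGA2B and GP9. Of all H3K27ac regions 38.1% were called lower at 72 h, and of those at RefSeq start sites 69.2%. Whether the marker regions overlap start sites was not counted. The count of 6 of 8 is near the start-site share and is not a result about the markers. All fold changes are relative to TMM scaling, which sets the bulk of regions equal. Scaling by total counts instead raised the table-wide median at 72 against 0 h by 0.56 for Jun, 0.23 for H3K27ac and 0.23 for CTCF, and moved that of Rad21 by −0.19.

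Acetylation around the AP-1 genes rose more often than it fell. Of 159 tested H3K27ac regions (1 was filtered out for low counts), 93 rose and 37 fell at 72 against 0 h (edgeR's quasi-likelihood test, adjusted p under 0.05). Over all regions 43.4% of regions were called higher and 38.1% lower, so the share called in either direction, 81.8% against 81.5%, did not stand apart, while the split did (58.5% of the tested member regions higher and 23.3% lower). Their median log2 fold change was 0.91, and 0.18 over the table. At 6 h, 70 regions were higher and 42 lower, against backgrounds of 32.3% and 26.3%. With total counts the 6 h split became 85 higher to 21 lower, or 80.2% of the calls higher where 71.8% of all calls in the table were, and the 72 h split 104 to 25, or 80.6% against 58.5%. DESeq2 gave 61 to 37 at 6 h, or 62.2% against 51.5%, and 86 to 28 at 72 h, or 75.4% against 54.4%. Between 6 and 72 h, 72 were higher and 20 lower (backgrounds 33.1% and 30.8%), or 65 and 7 with DESeq2 (90.3% of the calls higher, against 57.9% in the table). Total counts gave 61 and 28 between these times (68.5% of the calls higher, against 46.9% in the table).

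The members did not share 1 course. All 16 H3K27ac regions around JUN and all 12 around BATF, a partner of Jun proteins in lymphoid cells, were called higher at 72 h. So were 12 of 13 around ATF3, a stress-induced subunit, and 16 of 20 around FOSL2, a Fos-family subunit. Around JUNB only 2 of 16 were higher and 8 lower, around JUND 5 of 14 higher and 6 lower, and around FOSL1 6 of 21 higher and 10 lower. FOSB had 13 of 24 higher and 4 lower, FOS 7 of 11 higher and 1 lower, and MAFF, a small Maf protein without a transactivation domain, 4 of 12 each way.

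**Figure D1:**
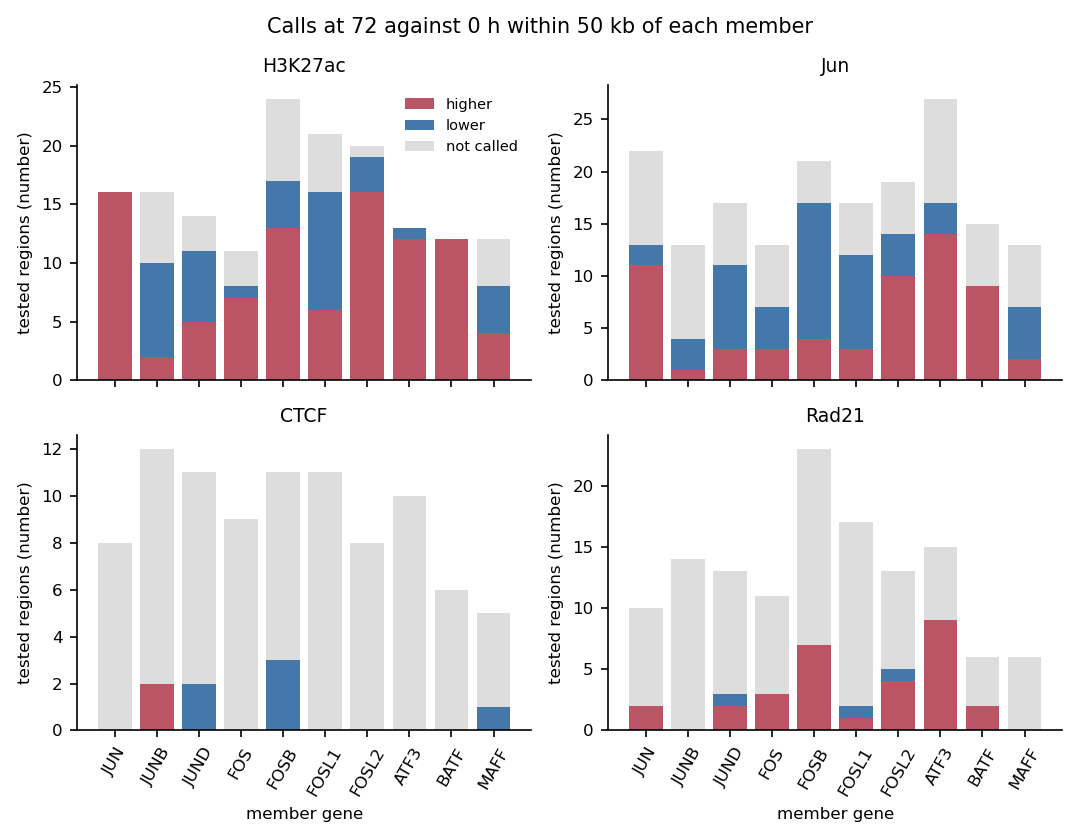
Number of tested regions within 50 kb of each member called higher, lower or not called at 72 against 0 h (edgeR, adjusted p under 0.05), one panel for each antibody, with bars stacked from 0. H3K27ac calls around JUN and BATF were all higher (16 and 12 regions), while CTCF had 8 calls in all.

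At the genes themselves, read at the region with the highest mean level within 1 kb of the gene span (the gene region), H3K27ac was called higher at 72 h in 7 of 10 members, lower in JUND, and not called in JUNB and FOSL1. The counts at the ATF3 gene region, chr1:212595721-212597380, inside the gene 31.1 kb from its upstream start, were 34 and 34 before PMA, 242 and 275 after 6 h and 1076 and 1065 at 72 h. No library of one time overlapped another, and in CPM (counts scaled by library total and TMM factor) the level rose from 1.86 ± 0.0984 to 38.9 ± 0.113 (SD, n = 2), or by 4.38 on the log2 scale (SE 0.17; edgeR adjusted p = 6.75e-18). The BATF gene region, 13.5 kb into the gene, had 74 and 64, then 240 and 374, then 716 and 811 counts, a log2 fold change of 2.87 (SE 0.15). The start of BATF itself moved later than that internal element: 96 and 103 counts before PMA, 121 and 160 after 6 h and 965 and 984 at 72 h, with log2 fold changes of 0.58 at 6 h and 2.70 at 72 h.

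FOS, FOSL2 and MAFF followed with smaller gains. The FOS gene region, 1.2 kb upstream of the start, went from 8.87 ± 0.624 to 15.6 ± 0.202 and 19.8 ± 2.32 CPM, with log2 fold changes of 0.82 at 6 h and 1.16 at 72 h, while the region over the FOS start was not called at either time (0.34 and 0.20). FOSL2 rose from 10.5 ± 1.07 to 19.7 ± 1.27 and 21.6 ± 2.06 CPM and MAFF from 8.52 ± 0.168 to 19.1 ± 0.664 and 19.6 ± 0.471 CPM, and neither was called between 6 and 72 h. The start of FOSB had 54 and 60 counts before PMA, 208 and 294 after 6 h and 297 and 306 at 72 h. The change on the log2 scale was 2.22 (SE 0.18) at 6 h and 1.81 at 72 h, and the level fell between them (−0.41, SE 0.14).

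At the JUN start the change was small. Its gene region (chr1:58782997-58785285) had 697 and 735 counts before PMA, 577 and 935 after 6 h and 1374 and 1268 in the deeper 72 h libraries. That gives 39.2 ± 0.601, 43.2 ± 3.99 and 48 ± 2.51 CPM, and at 72 h a log2 difference of 0.29 (SE 0.11; edgeR adjusted p = 0.0138). That call was lost without either 0 h library or without 72 h replicate 1 (adjusted p = 0.0752, 0.11 and 0.108 by edgeR). JUND fell from 50.4 ± 2.35 to 32.9 ± 4.23 and 34.4 ± 2.16 CPM (−0.61 and −0.55). JUNB fell at 6 h (−0.49) and was back at 68.7 ± 1.51 CPM at 72 h against 65.3 ± 2.73 at 0 h, and FOSL1 likewise fell at 6 h (−0.42) and was not called at 72 h (−0.14). With total counts the 6 h calls at JUNB and FOSL1 were lost (−0.16 and −0.09), JUN was called higher at 6 h (0.48) and JUNB at 72 h (0.31). The JUNB and FOSL1 regions overlap the neighbours HOOK2 and CCDC85B. The region inside JUNB itself was lower at both times, at 15.7 ± 2.3, 10.4 ± 1.49 and 8.32 ± 0.704 CPM (−0.59 and −0.92).

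**Figure D2:**
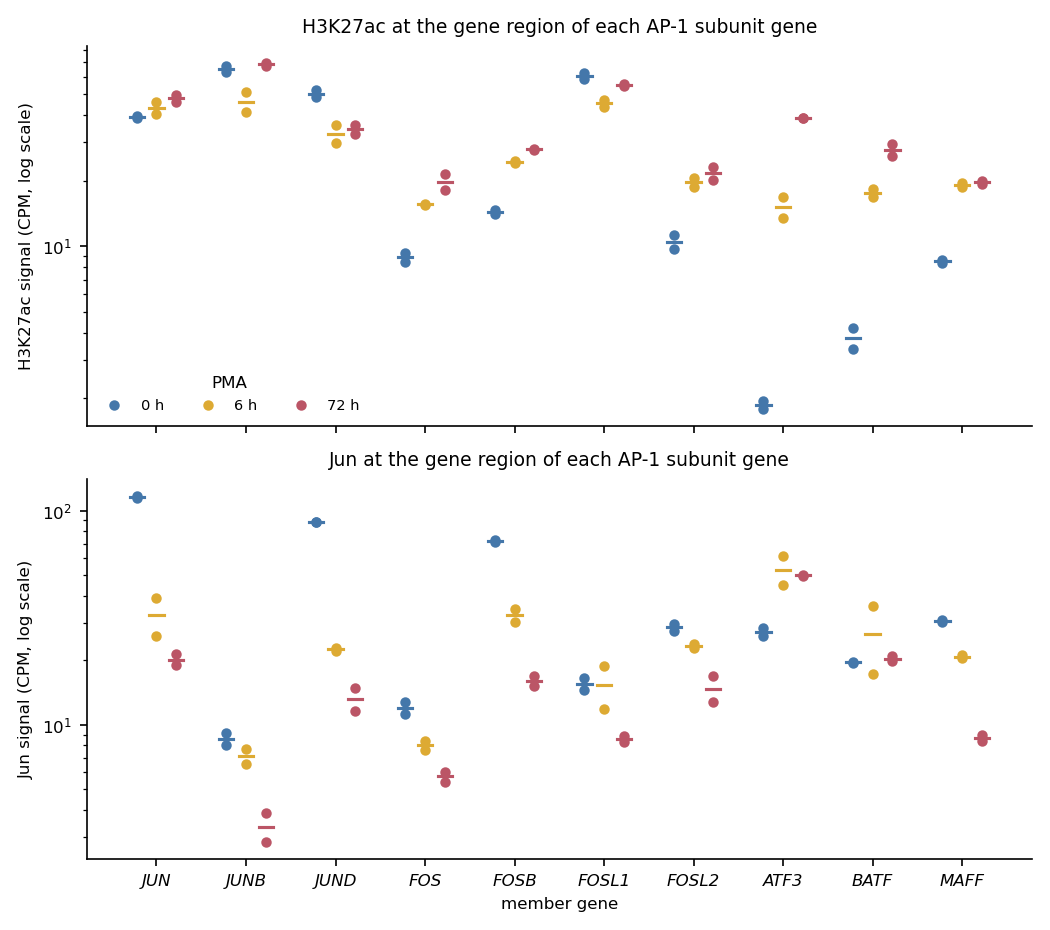
H3K27ac (top) and Jun (bottom) at the gene region of each member in TMM-scaled CPM on log axes; points are the 2 libraries of each time and short lines their mean. H3K27ac at ATF3 rose from 1.86 to 38.9 CPM, whereas Jun at JUN fell from 116 to 20.1 CPM.

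Gains in acetylation were counted separately at and away from start sites. Among member regions that overlap no RefSeq promoter window (250 bases before to 50 after a start), 81 of 127 were higher and 23 lower at 72 h (63.8% and 18.1%, against 47.1% and 34.1% of all such regions). Of the 32 that overlap a promoter window, 12 were higher and 14 lower, against 14.7% and 69.2% of all such regions. This division was chosen after seeing the data.

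Near ATF3, the H3K27ac region chr1:212531509-212534110, centred 32.6 kb upstream, had 22 and 23 counts before PMA, 169 and 175 after 6 h and 1934 and 2034 at 72 h. The level rose from 1.23 ± 0.0264 to 72 ± 2.88 CPM, 58.3-fold (log2 fold change 5.87, SE 0.18), with a log2 gain of 3.03 by 6 h and a further 2.84 from 6 to 72 h. Downstream of FOSL2, the region chr2:28446442-28447390, 54.1 kb from the start and within the uncharacterised locus LOC102723530, had 0 and 8 counts before PMA, 178 and 254 after 6 h and 582 and 542 at 72 h. The level was 0.211 ± 0.298, then 12.5 ± 0.0325, then 20.4 ± 0.938 CPM, a log2 fold change of 5.80 (SE 0.34) at 6 h and 6.51 (SE 0.32) at 72 h. The further gain from 6 to 72 h was called as well (1.63-fold, adjusted p = 0.000643 by edgeR). The neighbouring region at the start of LOC102723530 itself showed the same order, with 36 and 20, then 285 and 417, then 717 and 748 counts.

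The elements near ATF3 and FOSL2 given by coordinates carried the largest called change of their window among regions whose mean level was at or above the median of the table, and the regions named next near the other members were chosen in the same way. A region 26.9 kb upstream of BATF had 7 and 26, then 112 and 114, then 407 and 388 counts (15.9-fold, SE 0.28 on the log2 scale). At 16.5 kb from the FOSB start, beyond the gene's end, counts of 16 and 21 at 0 h became 61 and 57 and then 235 and 254 (3.13, SE 0.26). The region near FOSL1, 39.6 kb from the gene over LOC105369350, went from 9.97 ± 1.1 to 39.6 ± 0.275 CPM (1.99, SE 0.12), and that near JUND, over IQCN, stayed at 4.17 ± 0.514 and 4.45 ± 0.441 CPM at 0 and 6 h before reaching 15.2 ± 0.832 CPM (1.86, SE 0.17). In the window of JUNB it was a loss, at the start of RNASEH2A, a subunit gene of ribonuclease H2, from 36.4 ± 3.59 to 19.8 ± 0.647 and 8.77 ± 0.0388 CPM (−2.05, SE 0.12). Regions with a lower mean level changed more in several windows. At 21.2 kb from the JUND start, counts of 3 and 2 became 43 and 27 and then 161 and 118 (5.15, SE 0.50), and 2.1 kb into MAFF 7 and 4 became 27 and 35 and then 125 and 136 (3.95, SE 0.39). Near FOSL1 such a region 15.1 kb from the gene rose (7 and 10, 72 and 65, 83 and 87 counts, 2.72, SE 0.38) and another, 24.3 kb from it, fell (47 and 50, 18 and 12, 14 and 4 counts, −3.00, SE 0.50).

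**Figure D3:**
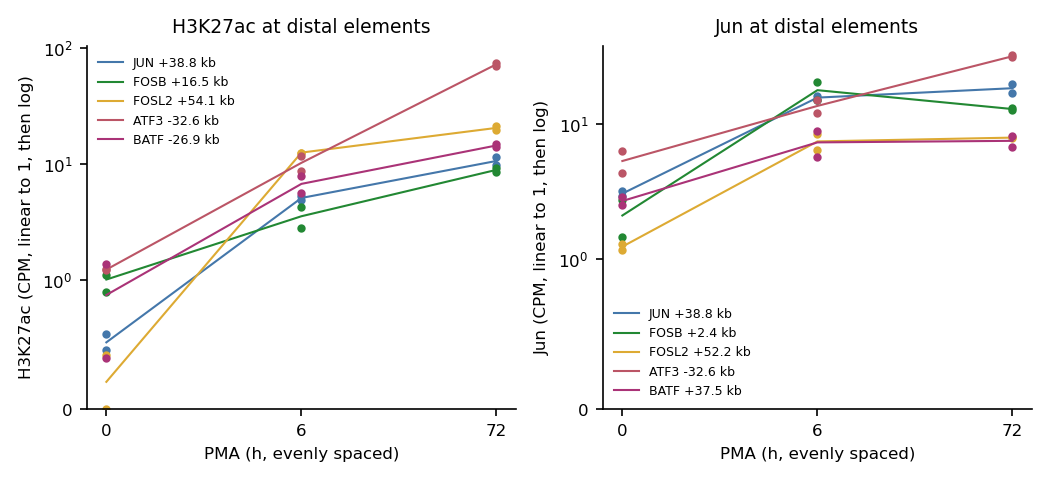
H3K27ac (left) and Jun (right) in TMM-scaled CPM at 0, 6 and 72 h of PMA at the region with the largest called change at 72 h, among those with a mean level at or above the median of the table, in the windows of JUN, FOSB, FOSL2, ATF3 and BATF, labelled by distance from the gene start. Points are libraries and lines join means; the ATF3 element 32.6 kb upstream reached 72 CPM for H3K27ac and 31.4 CPM for Jun at 72 h.

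Jun changed in both directions. Of 177 tested Jun regions (3 were filtered out), 60 rose and 51 fell at 72 against 0 h, 62.7% in all, against 53.7% of the table (28.0% higher and 25.7% lower). With total counts the split was 86 higher to 28 lower, where 74.4% of the calls over the table were higher. With DESeq2 the lean turned, at 41 higher to 47 lower (46.6% of the calls higher, against 43.5% in the table). At 6 h, 36 were higher and 24 lower (backgrounds 13.1% and 12.2%), or 47 and 18 with total counts (72.3% of the calls higher, against 66.9% in the table). DESeq2 gave 23 and 21 at 6 h (52.3% of the calls higher, against 47.9%). Between 6 and 72 h, 19 were higher and 35 lower (backgrounds 12.7% and 13.5%), a direction that turned with total counts (39 higher and 7 lower, with 78.9% of the calls over the table higher). This last count of 54 fell to 18 without 72 h replicate 1 and to 10 without 72 h replicate 2, and was 30 with DESeq2.

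At the members' gene regions Jun was lower at 72 h in 8 of 10, higher in ATF3, and not called in BATF. The JUN gene region, chr1:58783874-58784652, contains the whole promoter window printed above, both motif matches included. It had 786 and 815 counts before PMA, 114 and 215 after 6 h and 448 and 447 at 72 h, or 116 ± 1.54, 32.6 ± 9.44 and 20.1 ± 1.65 CPM. The 0 h libraries stood above all others, and the log2 fold change was −1.82 (SE 0.21) at 6 h and −2.52 (SE 0.21) at 72 h. The JUND promoter, with its TGACGTCA, behaved alike: 605 and 619, then 101 and 121, then 311 and 273 counts, a log2 fold change of −2.75 (SE 0.19). The FOSB promoter fell from 72 ± 1.16 to 32.4 ± 3.17 and 16.1 ± 1.23 CPM (−1.15 at 6 h and −2.16 at 72 h), and the MAFF promoter from 30.6 ± 0.544 to 20.8 ± 0.522 and 8.67 ± 0.379 CPM (−0.55 and −1.82). The 6 h call at MAFF was lost under most alternatives, with total counts among them (−0.36).

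The falls were smaller at FOS (12 ± 1.08 to 5.74 ± 0.429 CPM, −1.06, SE 0.22), FOSL2 (28.5 ± 1.49 to 14.8 ± 2.9 CPM, −0.95, SE 0.19) and FOSL1 (15.5 ± 1.34 to 8.61 ± 0.405 CPM, −0.85, SE 0.22). With total counts these 3 calls were lost (−0.50, −0.38 and −0.29), while those at JUN, JUND, FOSB and MAFF held (−1.96, −2.19, −1.60 and −1.25). At JUNB the gene region was a low one just past the gene's end (55 and 64, then 34 and 36, then 81 and 67 counts, −1.36, SE 0.26). The region over the JUNB start was not called (38 and 41, 28 and 38, 110 and 97 counts, −0.29). BATF held 19.6 ± 0.139, 26.5 ± 13.1 and 20.3 ± 0.775 CPM, with its 6 h libraries far apart (76 and 196 counts). It was not called, but was called higher at 6 h without 6 h replicate 1 (0.87) and at 72 h with total counts (0.62).

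A fall at start sites was not particular to the AP-1 genes. Among the 27 tested Jun regions of the windows that overlap any promoter window, 20 were lower and 1 higher at 72 h, or 74.1% and 3.7%, and over all tested regions 67.3% and 6.97% of such regions were. The median log2 fold changes were −1.20 and −1.05, so the share at the AP-1 windows was near the background and is not a result about them. Away from start sites 59 of 150 member regions were higher and 31 lower (39.3% and 20.7%, against 29.5% and 22.8%).

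ATF3 held both courses within 1 window. Jun at the intragenic gene region rose from 27.2 ± 1.56 to 52.9 ± 11.6 CPM at 6 h and stayed at 49.8 ± 0.382 CPM (0.97 and 0.87). At the element 32.6 kb upstream, Jun counts were 43 and 30, then 53 and 82, then 673 and 727, a log2 fold change of 2.57 (SE 0.23), where H3K27ac rose 5.87. At 6.4 kb upstream Jun fell instead, from 413 and 486 counts at 0 h to 125 and 228 at 6 h and 447 and 434 in the deeper 72 h libraries (−1.71, SE 0.20). A region 43.2 kb into the gene fell by 1.84 on the log2 scale (SE 0.19). At the upstream start, whose window holds TGACATCA, 43 and 47, then 36 and 74, then 193 and 166 counts gave 0.32 (SE 0.26), not called. In all, 14 of the 27 Jun regions around ATF3 were higher and 3 lower (51.9% and 11.1%, against 28.0% and 25.7% over the table).

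Among Jun regions whose mean level was at or above the median of the table, the largest called change differed in direction between the other members. FOSB gained Jun 2.4 kb inside the gene (10 and 19, then 66 and 111, then 274 and 297 counts, 3.08 at 6 h and 2.61 at 72 h), not far from the promoter region where it was lost. FOSL2 gained it 52.2 kb from the start (8 and 9, 28 and 46, 164 and 187 counts, 2.67, SE 0.34), close to the acetylated elements of LOC102723530, and BATF 37.5 kb from its start (17 and 20, 39 and 31, 142 and 192 counts, 1.48, SE 0.30). FOS lost it 19.5 kb upstream, from 36.2 ± 2.11 to 10.2 ± 0.582 and 10.6 ± 0.407 CPM (−1.83 and −1.77). FOSL1 lost it 6.0 kb from the gene (−1.66, SE 0.21) and MAFF at the start of PLA2G6, 20.1 kb upstream (−1.89, SE 0.22). Near JUNB the change was a gain 30.4 kb downstream of the start with low counts (6 and 12, 44 and 29, 65 and 96). It was called at 72 h (1.46, SE 0.44), but not without 0 h replicate 1 or 72 h replicate 2 (adjusted p = 0.105 and 0.11 by edgeR). Regions with a lower mean level rose more in some of these windows: 2.2 kb into MAFF Jun went from 6 and 4 to 10 and 8 and then 129 and 120 counts (2.94, SE 0.44), and 21.4 kb upstream of FOS from 7 and 5 to 4 and 5 and then 84 and 103, also called higher. At 9.6 kb into BATF it went from 0 and 8 to 3 and 4 and then 71 and 108 counts (2.76, SE 0.61). A region 17.1 kb from the JUND start was called higher by 4.04. The highest log2 fold change of any tested Jun region in the windows was 7.66 at 72 h, in the window of FOS.

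At JUN, where Jun was measured at its own gene, the promoter and part of the distal elements went opposite ways. Besides the promoter there were 21 Jun regions outside the gene span, 7 upstream and 14 downstream. At 72 against 0 h 11 of these rose, 9 of them downstream, 1 fell and 9 were not called. With the promoter included, 50% of the 22 regions were called higher and 9.09% lower. Of all tested Jun regions, 28.0% were called higher and 25.7% lower. Away from start sites the shares were 29.5% higher and 22.8% lower, and at start sites 6.97% and 67.3%. The fall at the promoter is therefore not particular to JUN. The count of 13 called regions at JUN, the promoter included, fell to 7 without 72 h replicate 1 and was also 7 with a mean count of at least 50.

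The largest log2 gain at JUN, chr1:58744665-58745899, lies 38.8 kb downstream of the JUN start over the uncharacterised loci LOC112268263 and LOC124904191. This region is distal to JUN but overlaps a RefSeq promoter window. It is the 1 start-site Jun region of all the windows that was called higher at 72 h. Its counts were 20 and 22 before PMA, 71 and 82 after 6 h and 413 and 399 at 72 h. The 0 h libraries lay below all others, and the level went from 3.03 ± 0.167 to 15.5 ± 0.815 and 18.3 ± 1.91 CPM, a log2 fold change of 2.35 (SE 0.27) at 6 h and 2.59 (SE 0.24, adjusted p = 5.35e-08 by edgeR) at 72 h. The adjacent region 37.2 kb downstream, with 9 and 7, 12 and 23, and 109 and 166 counts, rose by 2.39 (SE 0.39). In the pair of regions near 19 kb downstream, the nearer, at 18.8 kb, had 10 and 8, 10 and 10, and 143 and 135 counts and was called only at 72 h (4.78-fold, SE 0.37 on the log2 scale). The farther, at 19.6 kb, had 5 and 14, 28 and 27, and 95 and 129 counts and was called at both times (2.02 and 1.86).

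A region 28.4 kb downstream rose at both times (63 and 57, 74 and 93, 371 and 341 counts, 0.96 and 0.89). The region that abuts it on its far side, at 29.0 kb, fell at both (52 and 45, 8 and 21, 61 and 84 counts, −1.27 and −1.11). The 72 h call of the fall was lost with total counts (−0.55) and without 72 h replicate 1, and the 6 h call without 0 h replicate 1 or 6 h replicate 1. The 72 h call of the rise was lost without 72 h replicate 1 (adjusted p = 0.0505 by edgeR). Upstream, over JUN-DT, the divergent transcript of JUN, the region at 39.6 kb rose (67 and 69, 70 and 105, 426 and 452 counts, 1.00, SE 0.20). So did a low one at 19.1 kb (7 and 12, 9 and 4, 61 and 89 counts, 1.28, SE 0.46), whose call was lost without 0 h replicate 1 or either 72 h library. The remaining risers downstream, at 34.3, 16.0, 11.7 and 9.0 kb, had log2 fold changes of 1.80, 1.13, 0.87 and 1.34. Of these, the 3 at 16.0, 11.7 and 9.0 kb lost their calls with DESeq2 and without either 72 h library.

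The 9 uncalled regions stayed between −0.65 and 0.98 in log2 fold change. A cluster of 4 of them lies 31.3 to 32.9 kb upstream, over an H3K27ac region that held 26.9 ± 1.73, 20.6 ± 3.18 and 45.4 ± 0.814 CPM.

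All 16 H3K27ac regions around JUN rose, whether Jun rose there or not. Of the 11 distal Jun regions called higher, 8 overlapped an H3K27ac region and 3 did not. The Jun region at 29.0 kb downstream, where Jun fell, shared its H3K27ac region with the neighbour where Jun rose, and at the promoter Jun fell where H3K27ac was called higher. H3K27ac at the 38.8 kb element had 8 and 11 counts before PMA, 75 and 100 after 6 h and 318 and 266 at 72 h (log2 fold change 4.34, SE 0.27). At 28.5 kb it had 97 and 91, 226 and 420, and 889 and 970 counts (2.71, SE 0.15), and at 39.8 kb upstream 19 and 18, 50 and 66, and 319 and 289 counts (3.44, SE 0.24). A region 25.7 kb upstream rose mainly after 6 h, with 10 and 18, 20 and 33, and 223 and 239 counts (0.99 at 6 h and 3.45 at 72 h), and the Jun region there, with 8 and 8, 4 and 5, and 29 and 40 counts, was not called (0.41).

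**Figure D4:**
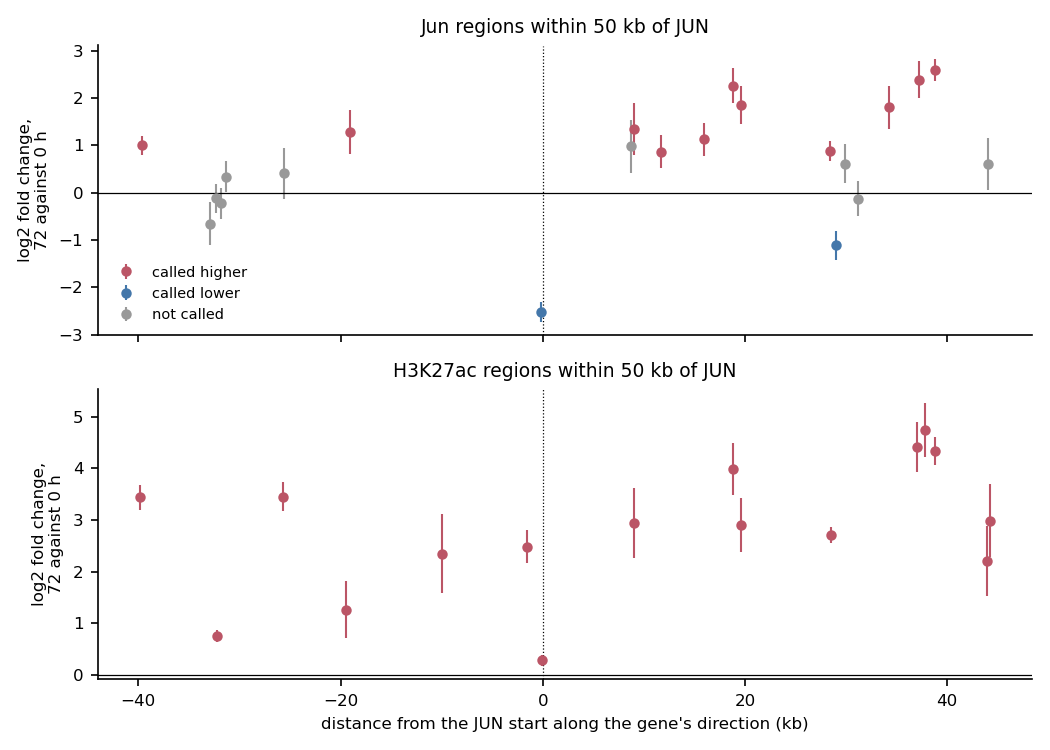
Log2 fold change at 72 against 0 h (points, with SE) of the Jun (top) and H3K27ac (bottom) regions within 50 kb of JUN, by distance from the JUN start along the gene; downstream is positive. Jun at the promoter fell by 2.52 while 11 regions outside the gene span rose, and all 16 H3K27ac regions were called higher, the promoter by 0.29.

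Across the windows, 131 of the 177 tested Jun regions overlapped a tested H3K27ac region by at least 1 bp. Of the 38 called higher for Jun at 72 h, 35 lay on H3K27ac regions called higher and 1 on a region called lower. Of the 47 called lower for Jun, 24 lay on H3K27ac regions called lower and 13 on regions called higher. Pearson's r between the log2 fold changes was 0.73 over the 131 pairs, 0.73 over the 105 away from start sites and 0.50 over the 26 at start sites. This is a description across sites, which share libraries, and some Jun regions share 1 H3K27ac region (113 distinct ones). Of all tested member H3K27ac regions, 58.5% were called higher. Such pairs were not counted over the whole table, so their agreement is not a result about the AP-1 windows. The 13 regions with Jun lower and H3K27ac higher included the promoters of JUN, FOSB, FOSL2 and MAFF. FOSB alone held 6 of them, and at its promoter Jun fell by 2.16 where H3K27ac rose by 1.81.

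**Figure D5:**
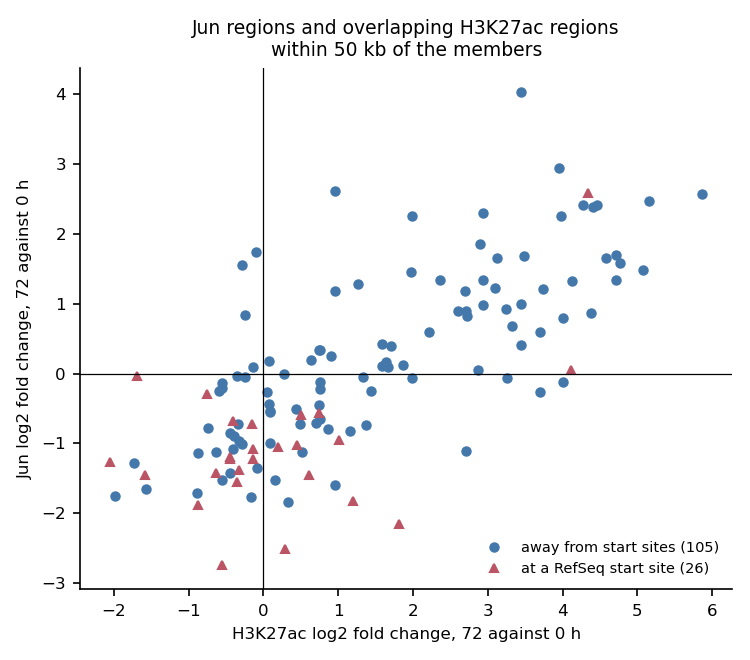
Jun against H3K27ac log2 fold change at 72 against 0 h for the 131 Jun regions that overlap an H3K27ac region within 50 kb of the members; circles are away from RefSeq start sites (105) and triangles at one (26). Regions high for both sit at the upper right, and start-site regions lie mostly below 0 for Jun.

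The authors called peaks in each library. A peak was present in both libraries at 48 of the 180 Jun regions at 0 h, 44 at 6 h and 121 at 72 h. For H3K27ac the numbers were 63, 56 and 102 of 160, for CTCF 40, 29 and 35 of 95, and for Rad21 36 at 0 h and 32 at 72 h of 140. The 72 h libraries were also sequenced more deeply for Jun and H3K27ac, and the part of depth in these numbers was not tested. The share of all regions with such peaks was not computed, so these numbers are not a result about the AP-1 genes.

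Most changes in cohesin were gains. Of 128 tested Rad21 regions (12 were filtered out), 30 rose and 3 fell at 72 against 0 h, or 23.4% and 2.34%, against 15.4% and 7.91% of the table. The 33 calls fell to 15 without 72 h replicate 1 and 21 without 72 h replicate 2, and to 14 with DESeq2, and were 20 higher and 7 lower with total counts (74.1% of the calls higher, against 48.8% in the table). ATF3 held 9 of the 30. Rad21 at the element 32.8 kb upstream of ATF3 had 15 and 18 counts against 86 and 70 (4.29-fold, SE 0.35 on the log2 scale), and at the intragenic region 70 and 76 against 188 and 161 (1.12, SE 0.26). At JUN the called regions were those at 39.6 kb upstream (19 and 12 against 87 and 73 counts, 2.25, SE 0.34) and at the 38.8 kb downstream element (12 and 0 against 54 and 18, 2.45, SE 0.66). The JUN promoter, where Jun fell, was not called for Rad21 (162 and 84 against 137 and 105 counts, −0.11, SE 0.25). Of the 17 regions with Jun higher that overlapped a tested Rad21 region, 13 had Rad21 called higher and none lower, and of the 43 with Jun lower, 7 had Rad21 higher and 3 lower. These overlaps were not counted over the whole table, so they are not a result about these genes.

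FOSB had 7 Rad21 gains, 4 of them over ERCC1, a DNA repair gene upstream, and the region 11.8 kb upstream of FOSB had 22 and 13 against 136 and 91 counts (2.57, SE 0.32). Jun at that place was called lower (−0.74, SE 0.19). FOSL2 had the deepest fall in Rad21 among the called regions, 26.1 kb upstream (67 and 48 against 22 and 18 counts, −1.63, SE 0.34). Near JUND a region 47.0 kb upstream at the start of LOC124904654 fell (136 and 106 against 79 and 78 counts, −0.73, SE 0.25), a call lost without any 1 of the 4 libraries and with DESeq2.

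CTCF changed little in these windows. Of 91 tested regions (4 were filtered out), 2 were called higher and 6 lower at 72 against 0 h, 8.79% in all, against 6.79% of the table (4.07% and 2.72%). At 6 h 1 region was called lower and none higher, where 2.65% of the table was called (0.325% lower and 2.33% higher). From 6 to 72 h 1 was called higher and none lower, where 2.18% of the table was called (0.449% higher and 1.73% lower). The 72 h count of 8 ranged from 0 without either 0 h library to 25 without either 6 h library, and was 1 and 0 without 72 h replicates 1 and 2. It was 15 higher and 2 lower with total counts, or 88.2% of the calls higher where 91.4% of all calls in the table were, and 0 and 4 with DESeq2, where 59.6% of the calls in the table were higher. The called regions with the highest level were both near FOSB. One lies 10.8 kb from its start over the selenocysteine tRNA gene TRU-TCA1-1 (662 and 462, 215 and 205, 322 and 595 counts, −1.13 at 6 h and −1.09 at 72 h). The other lies 17.7 kb from the start over RTN2 (516 and 438, 227 and 272, 288 and 468 counts, −1.13 at 72 h). The 6 h call of the first was lost with only the 2 times compared and without any 0 h or 72 h library (adjusted p between 0.104 and 0.29 by edgeR). Both 72 h calls were lost with total counts and without any 0 h or 72 h library. At JUND, 47.0 kb upstream, CTCF fell from 38.3 ± 1.5 to 15.7 ± 1.3 CPM over 72 h (−1.29, SE 0.25). This CTCF call was lost when either 0 h library or 72 h replicate 2 was left out. Rad21 and Jun (−1.45) were also called lower at this place, but the Rad21 call was lost without any 1 of its libraries.

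Lists of related genes were read at each gene's strongest region. Of 15 tested genes of other bZIP partners, 3 had higher and 11 lower H3K27ac at 72 h, against 7 higher and 1 lower of the 10 members. Their medians were −0.60 and 1.00, beside 0.18 over all regions and −0.66 over those at start sites. Of all regions 43.4% were higher and 38.1% lower, and of those at start sites 14.7% and 69.2%. The falls of the partners, and of the upstream genes below, were near the start-site share and are not a result about them. The regions of the listed genes were not themselves divided by start sites, so which share is their background is not known. The gene regions of ATF3, BATF, FOS, FOSB and JUNB lay away from start sites, so the contrast with the members mixes kinds of region. CREB5, a CRE-binding protein, rose from 6 and 8 to 77 and 88 and 958 and 1036 counts (6.54, SE 0.22), and BACH1, a transcriptional repressor that pairs with small Maf proteins, fell from 152 to 15.8 CPM (−3.27, SE 0.12). Among 18 upstream kinases and factors 4 were higher and 13 lower, with ELK3, a ternary complex factor, rising from 3.22 to 63.1 CPM (4.29) and MAPK8, which encodes the Jun kinase JNK1, falling from 198 to 16.4 CPM (−3.60). Of 12 tested textbook AP-1 targets 7 were higher and 2 lower, CD44, a hyaluronan receptor, among the former (11 and 2, 52 and 62, 289 and 301 counts, 4.89). For Jun the gene regions were lower in 10 of 15 partners, 10 of 17 upstream genes and 7 of 12 targets, beside 8 of 10 members, and higher in 3, 2, 2 and 1. The share lower was 25.7% over the table and 67.3% at start sites, so the Jun counts are not a result about these genes.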

How the data were processed

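The deposited tables list, per the file headers, whole-number counts for each library over the regions of 1 antibody. They also hold the authors' log2 fold changes, adjusted p-values and class names, which were used only where the authors' deposited table is named. The narrowPeak files give peaks called in each library by the authors, with a fold (ratio) and −log10 p and q of each peak. The submitters' processing notes name Trim Galore 0.4.3, BWA 0.7.17, SAMtools 1.9, deepTools 3.0.1, MACS2 and bedtools 2.26, and hg19 and hg38. Regions that run past the hg19 ends of chromosomes place the tables on GRCh38. Region starts follow those of the peak files, which count from 0, so 1 was added.

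Counts were tested with edgeR 4.0.16 in R 4.3.3 (quasi-likelihood, filterByExpr, TMM, all times of an antibody in 1 fit, no replicate block, Benjamini-Hochberg over the whole table, called at adjusted p under 0.05). DESeq2 1.42.0 and the other settings are alternatives. Peak overlap needed 1 bp. CPM is relative to counts in regions. The replicate differences of same-numbered libraries correlated between −0.00 and 0.13.

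Named regions were, for each gene and antibody, the strongest within 1 kb of the span; for H3K27ac and Jun the largest called change at 72 h at or above the table's median level; every Jun region at JUN; and up to 3 called regions each for CTCF and Rad21. Other regions named, and the division by start sites, were chosen after their values were seen. Members and lists were chosen with earlier results of these data known. The upstream bases of promoters are from RefSeq; FOSL1 has no entry there. Another gene of the marker lists is not reported here.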

Additional observations from a re-analysis of the deposited data

Results flagged for a closer look

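At 3 H3K27ac regions the change from 0 h was called lower at 6 h and higher at 72 h, and the 2 times differed by the test of 72 against 6 h itself (edgeR). In the window of JUN, 32.2 kb upstream, counts of 495 and 487 became 262 and 464 and then 1239 and 1263 (log2 fold change −0.37 at 6 h, 0.76 at 72 h and 1.13 at 72 against 6 h, adjusted p = 6.53e-09 by edgeR). In the window of FOS, 22.8 kb downstream of the start, they were 46 and 55, 27 and 33, and 164 and 166 (−0.66, 1.12 and 1.78, adjusted p = 1.02e-06 by edgeR). In the window of MAFF, 38.7 kb upstream over PLA2G6, they were 271 and 348, 196 and 242, and 799 and 768 (−0.41, 0.75 and 1.16, adjusted p = 2.11e-08 by edgeR). With total counts, which raised the median of all regions at 6 against 0 h by 0.33, the sign of 2 member calls at 6 h turned. That shift is close in size to the 6 h falls near JUN and MAFF (−0.37 and −0.41). The 6 h fall near FOS (−0.66) was larger than that shift. The part of scaling in the lower-then-higher course of these regions was not tested. No group holds more than 2 libraries, so single libraries were not tested as outliers.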

How the results depend on the processing

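Settings were changed 1 at a time, and the cause of each shift below was not tested.

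With DESeq2 the member regions called fell from 54 to 30 for Jun at 72 against 6 h, from 8 to 4 for CTCF at 72 against 0 h, from 1 to 0 for CTCF at 72 against 6 h and from 33 to 14 for Rad21. A mean count of at least 50, which leaves fewer regions to test, gave 73 of 111 for Jun at 72 against 0 h, 7 of 13 in the window of JUN, 1 and 0 for CTCF at 72 h (against 0 and 6 h), and 8 for Rad21. Without a filter CTCF at 72 against 6 h had 2. With only the 2 times compared, CTCF had 0 at 6 h and 28 at 72 against 0 h. With total counts it had 17 at 72 against 0 h and 11 at 72 against 6 h.

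Same-numbered libraries share only a number, with 2 numbers in all. The replicate block gave 19 calls for CTCF over 72 h and 4 between 6 and 72 h, and over 72 h 107 for Jun, 128 for H3K27ac and 37 for Rad21.

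Leaving out 1 library gave 7 to 13 in the window of JUN, 10 to 61 for Jun at 72 against 6 h, 0 to 6 for CTCF at 6 against 0 h, 0 to 25 at 72 against 0 h, 0 to 8 at 72 against 6 h, and 15 to 35 for Rad21. For the change over 72 h it gave 114 to 133 (H3K27ac) and 80 to 118 (Jun).

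Keeping only peaks with a deposited −log10 q of at least 10 left a peak in both libraries at 40, 27 and 61 H3K27ac regions at 0, 6 and 72 h, 26 and 70 Jun regions at 6 and 72 h, 18 CTCF regions at 6 h, and 16 and 11 Rad21 regions at 0 and 72 h.

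With total counts the sign of 2 called H3K27ac member regions turned at 6 against 0 h and that of 1 called Jun region at 72 against 0 h. So did the signs of uncalled Jun regions at JUN, 3 of them over 72 h (−0.13 to 0.43, −0.22 to 0.34 and −0.12 to 0.44). At the gene regions signs turned only where no change was called, as follows. H3K27ac at FOSL1 at 72 h became 0.02 with a mean count of at least 50 and 0.10 with total counts. Jun at FOSL1 at 6 h became 0.16 with total counts and ranged from −0.39 to 0.19 without 1 library. Jun at BATF ranged from −0.27 to 0.87 at 6 h without 1 library, and at 72 h from −0.04 to 0.06, with −0.04 also under DESeq2 and with only the 2 times compared. At 6 h, CTCF without 1 library ranged from −0.43 to 0.13 at JUN, −0.34 to 1.75 at FOS, −0.52 to 2.42 at FOSB, −0.41 to 0.67 at FOSL1 and −0.21 to 0.40 at FOSL2, and with total counts was −0.01 at FOSB and −0.05 at FOSL2. CTCF at JUND at 72 h became 0.15 with a mean count of at least 50 and 0.11 with total counts, and ranged from −0.30 to 0.07 without 1 library. Rad21 without 1 library ranged from −0.32 to 0.39 at JUN, −0.05 to 0.64 at FOSL1 and −0.57 to 0.33 at FOSL2, and with total counts was −0.01 at FOSL1.

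Depth was lowest for CTCF (2553677 to 6068421 counts) and Rad21 (4398797 to 7285286).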

Other observations

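The authors' deposited tables give class names with a direction to part of the regions. In the authors' deposited table for Rad21 the direction matched the sign of the deposited 72 h log2 fold change at 1985 of 1985 such regions. In the authors' deposited tables for H3K27ac, Jun and CTCF it matched at 60.5%, 49.9% and 83.7%, and among the member regions at 34 of 48 for H3K27ac and 7 of 22 for Jun.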
